A study of Bos indicus with 55 samples.

Results

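The miR-25 and miR-92 seed family comprises 4 entries of the bovine extracellular vesicle miRNA table: bta-miR-92a, bta-miR-25, bta-miR-92b and bta-miR-363. They were chosen by name, as 4 of 1024 entries, of which 655 had at least 1 count in any library. Extracellular vesicles (EVs) are small membrane particles that cells release. Here each library held small RNA from the EVs that a day 16 conceptus (embryo and membranes) shed into its medium during 6 h of culture. Of the conceptuses, 6 arose in vivo by artificial insemination (3 female and 3 male), 10 by in vitro fertilisation (IVF; 7 female and 3 male) and 12 by nuclear transfer, that is, cloning with the nucleus of a donor cell (5 female and 7 male). The animal number in the labels differs for each library, so each of the 28 stands for a different animal. The labels name no donor cell or donor animal for nuclear transfer, so that conceptus sex and donor cell cannot be told apart there. The organism is labelled Bos indicus throughout, but in the design text the conceptuses are Bos taurus taurus.

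A mature miRNA guides an Argonaute protein to messenger RNAs, mainly through its seed, the short stretch of bases 2 to 8 from its 5′ end, and the bound message is repressed. The 4 entries share this seed and can therefore address overlapping sets of messages, although they come from separate genes. In mammals miR-92a is produced from the miR-17-92 cluster and from a copy in the X-linked miR-106a-363 cluster, which also carries miR-363. MiR-25 lies with miR-93 and miR-106b in an intron of MCM7, a gene for DNA replication, and miR-92b has a locus of its own. The miR-17-92 and miR-106b-25 clusters are known for their activity in dividing cells, and miR-92a for a role in endothelial cells.

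Library totals ran from 39.3 k to 603.6 k counts with a median of 120.7 k (k, kilo). The entries bta-miR-2887 and bta-miR-2904, whose sequences are known to match ribosomal RNA, together took 4.11% to 76.3% of a library's counts. Their part moved between groups: 30.3% to 59.4% in nuclear transfer males against 5.17% to 44.5% in nuclear transfer females. Levels are given as CPM (counts scaled to a fixed library total) after TMM scaling, which sets libraries to a common level across most entries. Epithelial miRNAs, the miR-200 and miR-141 group known from epithelia such as the outer conceptus layer, summed to between 5862 and 103114 CPM, with 5 of 5 list members detected. Those of red blood cells (3 of 3 detected) summed to between 37.5 and 3664 CPM, of which bta-miR-144 held 7 counts in all. A level in EVs is a share of the small RNA recovered, so that fewer EVs carrying a miRNA and less of it per EV cannot be told apart.

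bta-miR-92a was the most abundant member, followed by bta-miR-25, bta-miR-92b and, far below, bta-miR-363. Over the 28 libraries bta-miR-92a averaged 6257 ± 2511 CPM (SD, n = 28) and ranked 24 of 1024 by mean level. The mean of bta-miR-25 was 1949 ± 988 CPM (SD, n = 28), at rank 47. For bta-miR-92b it was 439 ± 430 CPM (SD, n = 28), at rank 104. bta-miR-92a exceeded bta-miR-25 in all 28 libraries, with 15.3 to 49.2 bta-miR-25 counts per 100 of bta-miR-92a. Ligation and amplification can favour one short RNA over another, and their part in this order was not tested. Together the 4 entries took 0.437% to 1.71% of a library's counts.

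**Figure D1:**
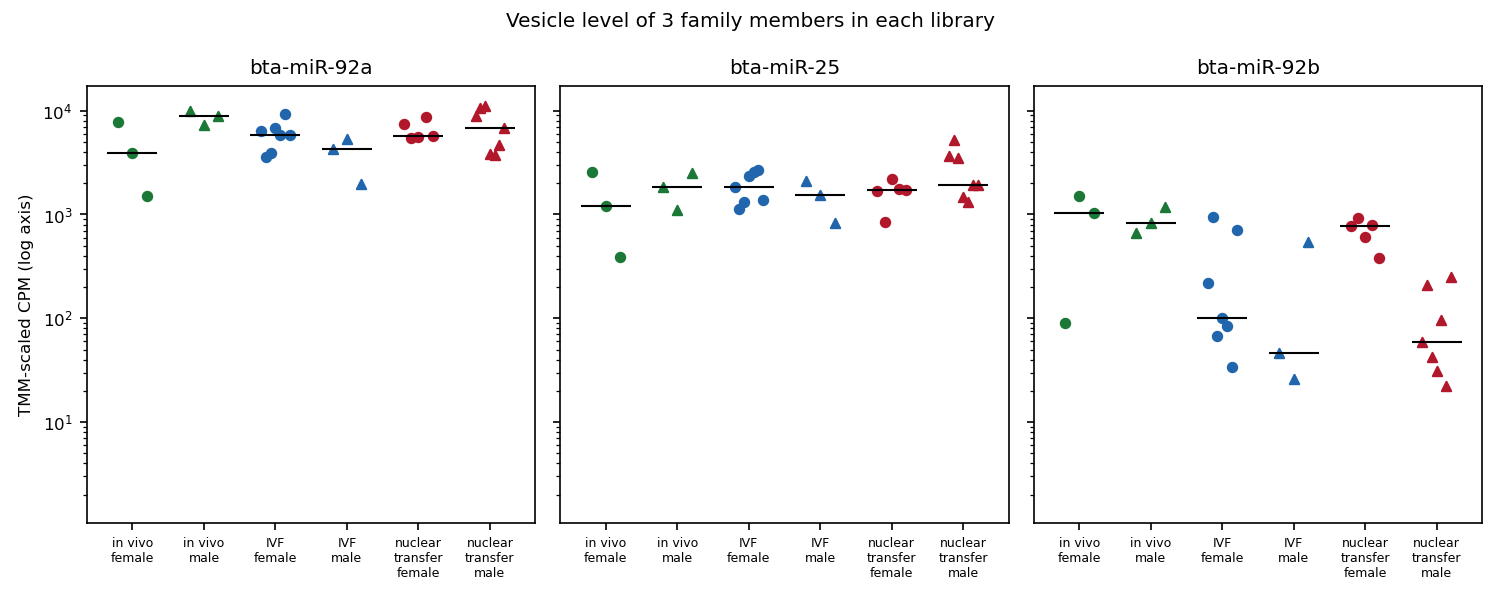
TMM-scaled CPM (log axis) of bta-miR-92a, bta-miR-25 and bta-miR-92b in each of the 28 EV libraries, by conceptus type and sex; circles are female, triangles male and bars group medians. The bta-miR-92a points stay between 1512 and 11130 CPM, whereas those of bta-miR-92b spread from 22.2 to 1510 CPM.

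The members differed in how far they varied. The SD of log2 CPM over the libraries was 0.68 for bta-miR-92a and 0.74 for bta-miR-25, against a median of 1.17 over the 240 entries tested. For bta-miR-92b it was 1.80, and 23 of the 240 tested entries had a larger one. Counting error widens this SD for entries with few counts, and its part here was not tested. Expressed as the ratio of the highest to the lowest library, the range was 7.36-fold for bta-miR-92a, 13.4-fold for bta-miR-25 and 68.1-fold for bta-miR-92b. With the 6 means of type and sex taken out, the SDs were 0.62, 0.71 and 1.38 in the same order, against a median of 1.12. The spread of bta-miR-92b thus lay between these groups and also among libraries of 1 type and sex. Of the family's counts, bta-miR-92a made up 51.5% to 79.8%, bta-miR-25 11.6% to 32.8% and bta-miR-92b 0.284% to 35.2%.

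**Figure D2:**
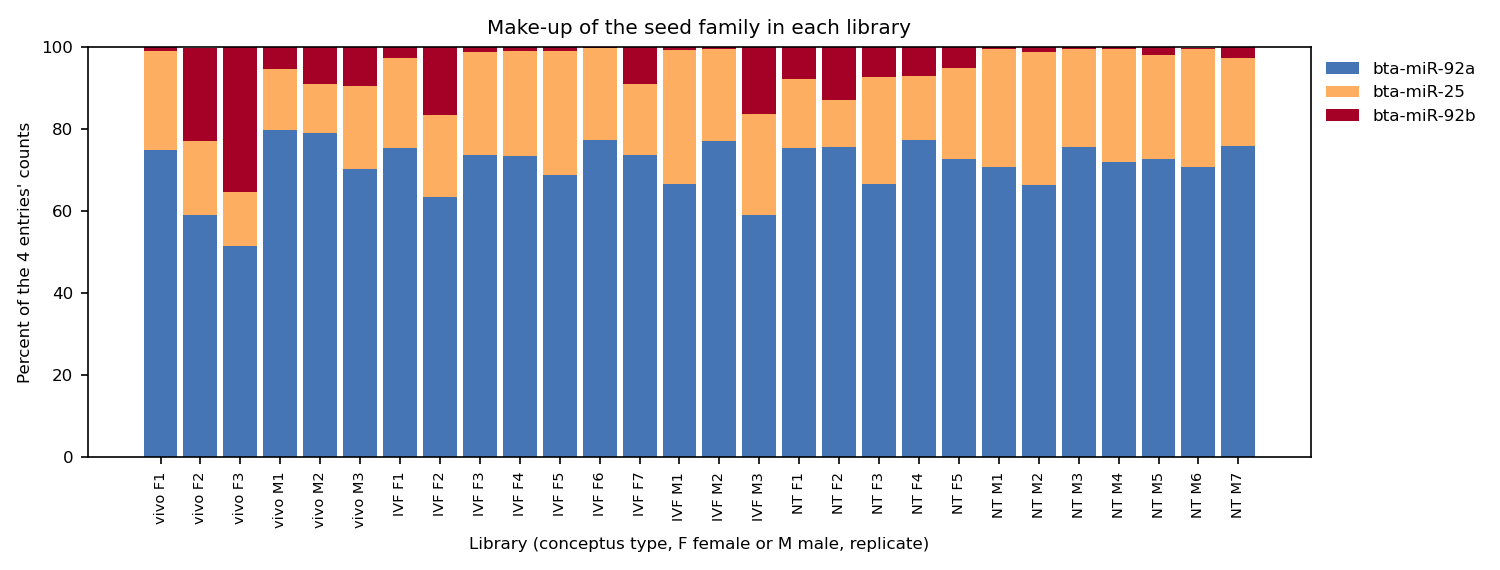
Percent of the counts of the 4 entries that each of bta-miR-92a, bta-miR-25 and bta-miR-92b took in each library (vivo, in vivo; NT, nuclear transfer; F, female; M, male; the number is the replicate). bta-miR-92a took 51.5% to 79.8% in each library, and the bta-miR-92b part was widest, at 35.2%, in in vivo female replicate 3 and narrowest, at 0.284%, in IVF female replicate 6.

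The first question was whether EV levels of the family differed with the way the conceptus was made. No member passed the test in any comparison of conceptus types, and bta-miR-92b stood furthest from its in vivo level, with lower means after IVF and nuclear transfer. The test was edgeR's quasi-likelihood F test (two-sided, Benjamini-Hochberg adjustment over all 240 entries tested, threshold 0.05), with each type difference averaged over the sexes. Of the members, 3 of 4 had enough counts to be tested, and bta-miR-363 did not.

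bta-miR-92b measured 658, 828.8 and 1192 CPM in the in vivo males and 90.7, 1510 and 1034 CPM in the in vivo females. Among IVF conceptuses it measured 220, 935, 67.1, 101, 84.3, 34.1 and 714 CPM in the females and 46.4, 26.0 and 543 CPM in the males. In vivo female replicate 1 was the low library of its type, while the 3 highest of the 10 IVF libraries lay at 543 CPM or more and the other 7 at 220 CPM or less, so that the groups overlapped. Nuclear transfer libraries spanned 22.2 to 927 CPM with a median of 228 and overlapped with both.

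The mean level of bta-miR-92b was 886 ± 488 CPM in vivo (SD, n = 6), 277 ± 331 CPM after IVF (SD, n = 10) and 350 ± 339 CPM after nuclear transfer (SD, n = 12). The IVF minus in vivo difference was −1.82 on the log2 scale (SE 0.74, edgeR adjusted p = 0.229), in a comparison that called 0 of 3 tested members and 0% of all tested entries, 39 of which had an unadjusted p under 0.05. DESeq2 called 13 entries there and limma voom 22. The bta-miR-92b difference became −3.02 (adjusted p = 0.0351) without IVF male replicate 3, and −3.19 (adjusted p = 0.0115) in limma voom with quality weights. It thus passed the threshold in 1 of 28 fits with a library left out and in 1 of 11 alternatives. The rest did not pass, with adjusted p up to 0.546 and 0.439. Nuclear transfer differed from in vivo by −1.73 (SE 0.66, adjusted p = 0.278), where again 0 of 3 members and 0.417% of tested entries were called. By sex, the nuclear transfer minus in vivo difference was −3.13 in males (SE 0.89) and −0.33 in females (SE 0.98), and that of IVF minus in vivo −2.14 in males (SE 1.17) and −1.50 in females (SE 0.89). These comparisons share the in vivo libraries. Nuclear transfer minus IVF was 0.09 (SE 0.64, adjusted p = 0.977), the average of 1.17 in females (SE 0.79) and −0.99 in males (SE 0.94), in a comparison that called 0 of 3 members and 1.25% of tested entries. It became 1.201 (adjusted p = 0.503) without IVF male replicate 3 and 1.41 (adjusted p = 0.253) in limma voom. The contrasts within 1 sex are given without a test. The libraries of the in vivo group also had a smaller part of their counts in bta-miR-2887 and bta-miR-2904, 22.6% ± 12.5 (SD, n = 6), than those of IVF, 45.3% ± 25.7 (SD, n = 10), or nuclear transfer, 37.5% ± 16.7 (SD, n = 12). With that part as a covariate, the IVF minus in vivo difference was −1.69 (adjusted p = 0.439) and the nuclear transfer minus in vivo difference −0.93 (adjusted p = 0.513). The median sum of the early embryonic miRNAs was 586 CPM in vivo (102 to 1881, 5 of 6 detected, bta-miR-367 at 0), 3949 CPM after IVF (15.1 to 12460, 6 of 6 detected) and 1079 CPM after nuclear transfer (141 to 7784, 5 of 6 detected). For white blood cell miRNAs, with 4 of 4 detected in each type, the medians were 72.7 CPM (16.6 to 2838), 900 CPM (33.6 to 6471) and 1069 CPM (0 to 5767) in the same order. The part of these markers in the bta-miR-92b differences was not tested.

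bta-miR-92a lay close together across types. Its mean was 6537 ± 3168 CPM in vivo (SD, n = 6), 5321 ± 2026 CPM after IVF (SD, n = 10) and 6898 ± 2503 CPM after nuclear transfer (SD, n = 12), in the order nuclear transfer, in vivo, IVF, with no neighbouring pair further apart than the SD within a group. The log2 differences were −0.37 for IVF minus in vivo (SE 0.36, adjusted p = 0.632), 0.15 for nuclear transfer minus in vivo (SE 0.34, adjusted p = 0.852) and 0.52 for nuclear transfer minus IVF (SE 0.31, adjusted p = 0.522).

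Within 1 sex, bta-miR-92a did separate a pair of groups of 3. The in vivo males measured 9820, 7307 and 8807 CPM, and the IVF males 4295, 5295 and 1976 CPM. The groups did not overlap, and the fitted difference was −1.16 on the log2 scale (SE 0.55), a contrast picked after its values were seen and given without a test. How many of the 240 tested entries also separated these groups of 3 was not counted, so the separation is only a description. The in vivo females measured 7831, 3942 and 1512 CPM, and overlapped with the IVF females at 6362, 3604, 3869, 6816, 5823, 9292 and 5873 CPM. Whether type differences depend on sex was tested on 2 degrees of freedom, with an adjusted p of 0.425 for bta-miR-92a, 0.649 for bta-miR-25 and 0.391 for bta-miR-92b. This interaction called 0 of 3 members and 0% of tested entries, 35 of which had an unadjusted p under 0.05; DESeq2 and limma voom also called 0.

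bta-miR-25 averaged 1600 ± 855 CPM in vivo (SD, n = 6), 1779 ± 637 CPM after IVF (SD, n = 10) and 2266 ± 1237 CPM after nuclear transfer (SD, n = 12). The neighbours in this order differed by less than the SD within a group. Its highest libraries were nuclear transfer male replicates 1, 2 and 3, at 3651, 5204 and 3513 CPM, the highest of the other 25 libraries being 2695 CPM. The lowest was in vivo female replicate 3 at 389 CPM, which also had the lowest bta-miR-92a level. Its log2 differences were 0.09 for IVF minus in vivo (SE 0.40, adjusted p = 0.933), 0.41 for nuclear transfer minus in vivo (SE 0.39, adjusted p = 0.637) and 0.32 for nuclear transfer minus IVF (SE 0.34, adjusted p = 0.786).

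**Figure D3:**
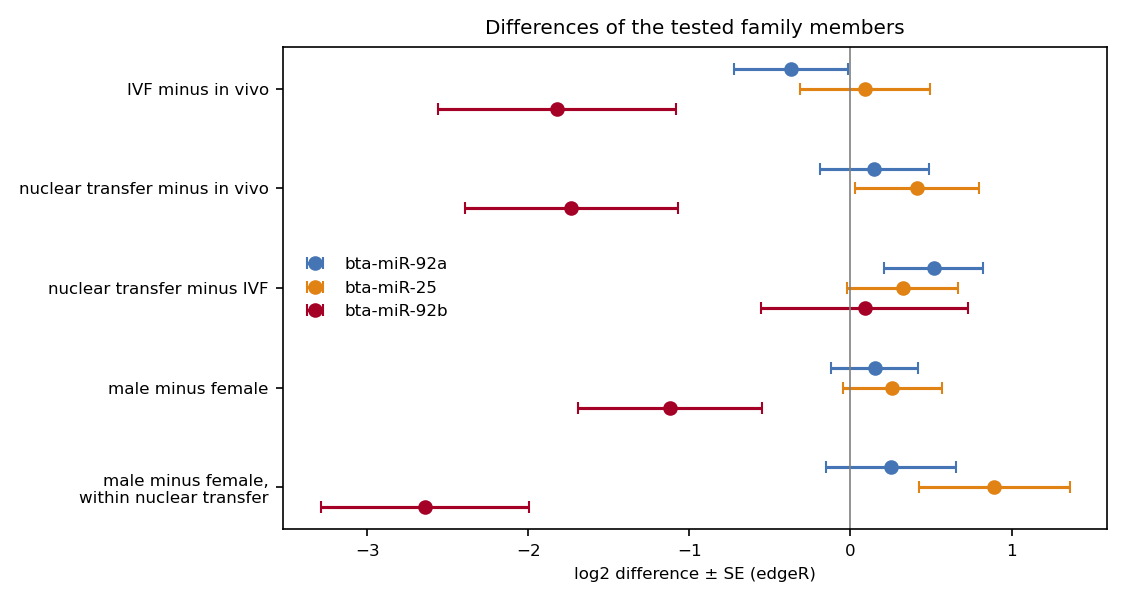
log2 differences from the edgeR fits, with bars of 1 SE, for bta-miR-92a, bta-miR-25 and bta-miR-92b in 5 comparisons. bta-miR-92b lies furthest from 0 in 4 of the 5, reaching −2.64 for male minus female within nuclear transfer, the 1 difference of the 15 that passed the threshold.

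The design also contrasts male with female conceptuses. bta-miR-92b was lower in the EVs of male than of female nuclear transfer conceptuses, and the other tested members did not pass the test there. The nuclear transfer females measured 769, 927, 613, 798 and 383 CPM. The nuclear transfer males measured 59.0, 208, 42.2, 30.8, 96.9, 22.2 and 247 CPM. Every male lay below every female, so that the sexes did not overlap. How many other entries also did not overlap was not counted, and the test below called 22.2% of 180 tested entries. The counts behind these levels were 57, 75, 327, 81 and 42 in the females and 6, 27, 3, 4, 19, 4 and 34 in the males, so the lowest male levels are imprecise. For male replicate 6, the exact 95% Poisson interval, which covers counting error only, ran from 6.04 to 56.7 CPM. For the lowest female, replicate 5, it ran from 276 to 517 CPM.

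The mean was 698 ± 209 CPM in the females (SD, n = 5) and 101 ± 90.5 CPM in the males (SD, n = 7). In a fit of the 12 nuclear transfer libraries bta-miR-92b fell by 2.64 on the log2 scale from female to male (SE 0.65, edgeR adjusted p = 0.0129). Here 1 of 3 tested members passed, in a comparison that called 40 of 180 tested entries, or 22.2%, with 24 higher and 16 lower in males. Leaving out each of the 12 libraries kept the call, with differences from −3.13 to −2.44 and adjusted p from 0.00471 to 0.0410.

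Expressed against its nearest relative, bta-miR-92b made up 9.28%, 14.5%, 9.83%, 8.40% and 6.31% of the bta-miR-92a and bta-miR-92b counts in the nuclear transfer females. In the males the percentages were 0.656, 1.91, 0.377, 0.792, 2.53, 0.468 and 3.53. This share needs no scaling between libraries, and it too did not overlap between the sexes. It rests on the same bta-miR-92b counts as the levels above, so it is not a separate result. How the authors' counting assigned reads that match more than 1 entry is not given in the sources used here, and no other entry had the same counts as a member in all libraries.

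Between the nuclear transfer sexes bta-miR-2904 was higher in males (1.58, SE 0.54, edgeR adjusted p = 0.0436), and the value for bta-miR-2887 was 0.99 (SE 0.51, adjusted p = 0.157). With the part of counts in those entries as a covariate, the difference of bta-miR-92b was −2.56 with an adjusted p of 0.160, and the number of entries called over the whole fit went from 40 to 0, with 26 at an unadjusted p under 0.05. Where the sexes overlapped in that part, between 30.3% and 44.5%, the 2 females measured 769 and 927 CPM and the 3 males 208, 22.2 and 247 CPM. Since every male lay below every female, any such subset had to separate, so these values cannot decide on the role of that part. Across all 28 libraries bta-miR-92b was lower where that part was larger (Spearman's rho −0.77, Pearson's r −0.80, as a description). The 3 highest IVF libraries had 8.80% to 22.0% of counts there, and the other 7 had 24.0% to 76.3%. In vivo the pattern was less close: female replicate 1 had 35.2% and male replicate 1 had 37.1%, with 90.7 and 658 CPM of bta-miR-92b. The summed levels of the 7 cell type lists overlapped between the sexes. Among their single entries, bta-miR-371 of the early embryonic list did not overlap. It ran from 3.75 to 27.3 CPM in females and from 29.1 to 369 CPM in males, and every other list entry overlapped. This entry was picked after its values were seen, and the gap between the sexes was narrow. How many of all tested entries also did not overlap was not counted, and the test between these sexes called 22.2% of 180. Epithelial miRNAs ran from 16363 to 103114 CPM in females and from 6840 to 32312 CPM in males, with medians of 36837 and 16391. Those of early embryonic cells, the miR-302 group with miR-367 and miR-371, ran from 141 to 1088 CPM in females and from 423 to 7784 CPM in males. Their medians were 197 CPM in females and 2473 CPM in males, with 5 of 6 detected and bta-miR-367 at 0. In the same order, the medians were 337 and 939 CPM for red blood cells, 999 and 1138 for white blood cells, 3928 and 3640 for endothelium, 1722 and 2684 for liver and 891 and 214 for striated muscle. The sexes were not tested for these sums, and the part of these markers in the bta-miR-92b difference was not tested.

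**Figure D4:**
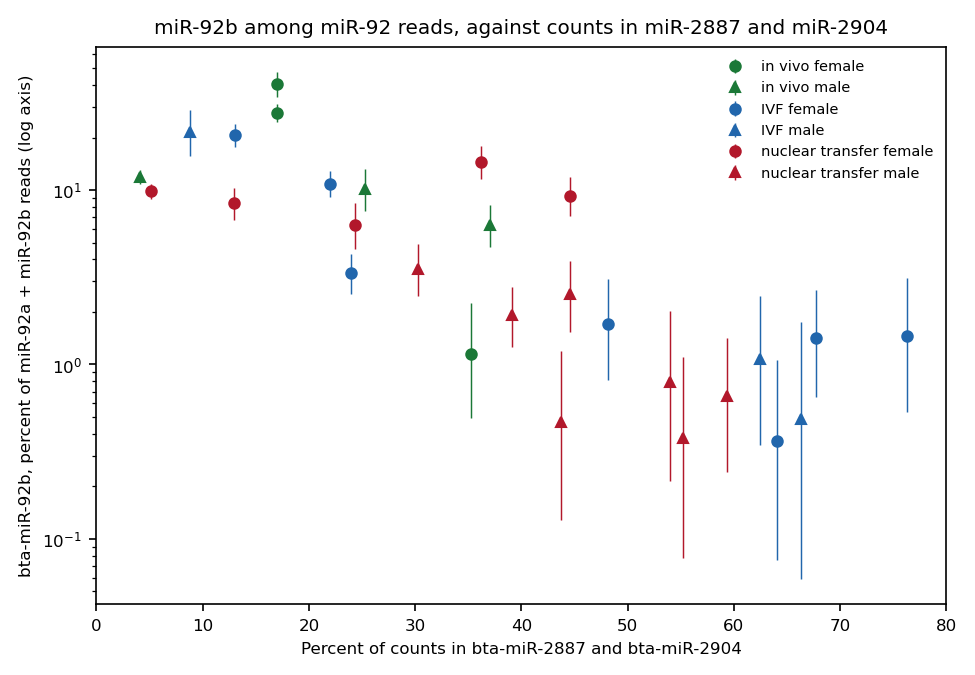
bta-miR-92b as a percent of bta-miR-92a and bta-miR-92b counts (log axis; bars are exact 95% binomial intervals, counting error only) against the percent of all counts in bta-miR-2887 and bta-miR-2904, for each of the 28 libraries. The nuclear transfer females lie between 6.31% and 14.5% and the nuclear transfer males between 0.377% and 3.53%.

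For the other types the sexes of bta-miR-92b overlapped. In the fit of all 28 libraries its male minus female difference was 0.02 in vivo (SE 1.10), −0.62 after IVF (SE 0.99) and −2.77 after nuclear transfer (SE 0.82), all on the log2 scale. The interaction above, which tests whether these differ, did not pass the threshold for bta-miR-92b. Averaged over the types the difference was −1.12 (SE 0.57, edgeR adjusted p = 0.694), in a comparison that called 0 of 3 members and 0% of tested entries, with 9 at an unadjusted p under 0.05 and 0 calls by DESeq2 or limma voom.

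bta-miR-25 and bta-miR-92a did not pass the test between the sexes. Within nuclear transfer, bta-miR-25 measured 1687, 840, 2216, 1755 and 1732 CPM in females and 3651, 5204, 3513, 1472, 1306, 1911 and 1907 CPM in males. The sexes overlapped, with 3 males above all females, and the difference was 0.89 (SE 0.47, adjusted p = 0.163). bta-miR-92a measured 7519, 5462, 5623, 8705 and 5687 CPM in females and 8936, 10646, 11130, 3861, 3734, 4714 and 6755 CPM in males. Males lay on both sides of the females, and the difference was 0.25 (SE 0.41, adjusted p = 0.681). Averaged over types, the male minus female difference was 0.26 for bta-miR-25 (SE 0.31, adjusted p = 0.804) and 0.15 for bta-miR-92a (SE 0.27, adjusted p = 0.828).

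bta-miR-363, the member of the X-linked cluster, was near the limit of what these libraries can show. It had 8 counts in 6 of 28 libraries, which is 1.99 CPM without TMM scaling, with an exact 95% Poisson interval of 0.858 to 3.92. There were 3 counts in 2 in vivo libraries, 1 count in 1 IVF library and 4 counts in 3 nuclear transfer libraries. Females and males held 4 counts each, or 1.78 CPM (0.486 to 4.57) and 2.24 CPM (0.611 to 5.74), so that no sex difference was detectable at this depth. Other products of that cluster, bta-miR-92a and bta-miR-19b, are also made from the miR-17-92 cluster, so that their counts do not show which cluster they came from. Of those known from the X-linked cluster alone, bta-miR-106a had 21 counts in 11 libraries, or 5.22 CPM (3.23 to 7.97). For bta-miR-20b there were 3 counts in 2 libraries, and for bta-miR-18b 0 counts, with an upper limit of 0.916 CPM by the same exact interval.

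Other bovine entries known to carry the seed are bta-miR-32, from an intron of TMEM245, and bta-miR-367, which belongs to the miR-302 cluster of pluripotent cells. bta-miR-32 averaged 72.7 ± 34.5 CPM (SD, n = 28), with 298 counts in 27 libraries. Its differences did not pass the test: 0.24 for IVF minus in vivo (SE 0.52, adjusted p = 0.861), −0.09 for nuclear transfer minus in vivo (SE 0.48, adjusted p = 0.925) and −0.39 for male minus female (SE 0.39, adjusted p = 0.793). bta-miR-367 had 1 count, in an IVF library.

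The miRNAs transcribed with the members in the miR-17-92, miR-106a-363 and miR-106b-25 clusters formed a list of 11, of which 10 had a count and 5 were tested. In edgeR none of the 5 passed the threshold in any comparison, and between types 1, 2 and 1 of them had an unadjusted p under 0.05, in the order below, beside 39, 27 and 24 of all 240 tested entries. Over all tested entries, these comparisons called 0%, 0.417% and 1.25%. An entry could pass the count filter through libraries of 1 type or sex alone, and partners of 1 cluster share a transcript. The counts of signs that follow are therefore not of separate results, and were not tested. For IVF minus in vivo, 5 of 5 were above 0 with a median of 1.37, beside a median of 0.01 over all tested entries. For nuclear transfer minus in vivo, with the same in vivo libraries, 5 of 5 were above 0 with a median of 0.61 beside 0.15. For nuclear transfer minus IVF, 1 of 5 was above 0 with a median of −0.59 beside 0.06. Among them bta-miR-17-5p, of the same primary transcript as bta-miR-92a, had IVF minus in vivo 2.15 (SE 0.80, adjusted p = 0.174). For bta-miR-106b and bta-miR-93, the neighbours of bta-miR-25, the same difference was 1.07 (SE 0.56, adjusted p = 0.308) and 0.96 (SE 0.63, adjusted p = 0.454). The values of bta-miR-92a and bta-miR-25 in that comparison, −0.37 and 0.09, lay below those of these cluster partners, and that gap was not tested. Between the nuclear transfer sexes 3 partners were tested, 3 of 3 were above 0 in males with a median of 0.80 beside 0.05, and bta-miR-17-5p stood at 1.56 (SE 0.69, adjusted p = 0.111). That comparison called 0 of 3 partners beside 22.2% of all tested entries.

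Likeness across the 28 libraries was described by Spearman's rho with Pearson's r beside it, on log2 CPM. Libraries share their depth and scaling across entries, and such values say nothing of shared control. bta-miR-25 and bta-miR-92a followed each other (rho 0.72, r 0.81), and more closely with the 6 group means taken out (rho 0.83, r 0.87), when each was the other's nearest entry. The other entries nearest to bta-miR-25 were bta-miR-378 (rho 0.74, r 0.74) and bta-miR-2463 (rho 0.69, r 0.66). Nearest to bta-miR-92a were bta-miR-1307 (rho 0.86, r 0.81), then bta-miR-25 and bta-miR-423-3p (rho 0.67, r 0.68).

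bta-miR-92b did not follow its seed relatives. Its rho was −0.49 with bta-miR-25 (r −0.46), −0.08 with bta-miR-92a (r −0.14) and 0.20 with bta-miR-32 (r 0.28). With group means taken out, the rho was −0.40, −0.33 and 0.14 in the same order (r −0.42, −0.39 and 0.19). Its nearest entries were bta-miR-99b (rho 0.88, r 0.88), bta-miR-125a (rho 0.87, r 0.87) and bta-let-7c (rho 0.87, r 0.89), the first pair known to lie in 1 cluster with a let-7 gene. The let-7 miRNAs are known to accumulate with differentiation in many tissues. bta-let-7c stayed nearest with group means taken out (rho 0.88, r 0.86). Between the nuclear transfer sexes, bta-miR-99b passed the threshold at −1.76 (SE 0.53, edgeR adjusted p = 0.0271), and bta-miR-125a at −1.76 (SE 0.64, adjusted p = 0.0571) and bta-let-7c at −1.38 (SE 0.62, adjusted p = 0.118) did not. That comparison called 22.2% of 180 tested entries. These entries were chosen for likeness to bta-miR-92b over libraries that include the nuclear transfer ones. A fall in males was thus largely built into the choice and is no separate result. With bta-miR-2904 itself the rho of bta-miR-92b was −0.80 (r −0.85) and with bta-miR-2887 −0.73 (r −0.73).

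**Figure D5:**
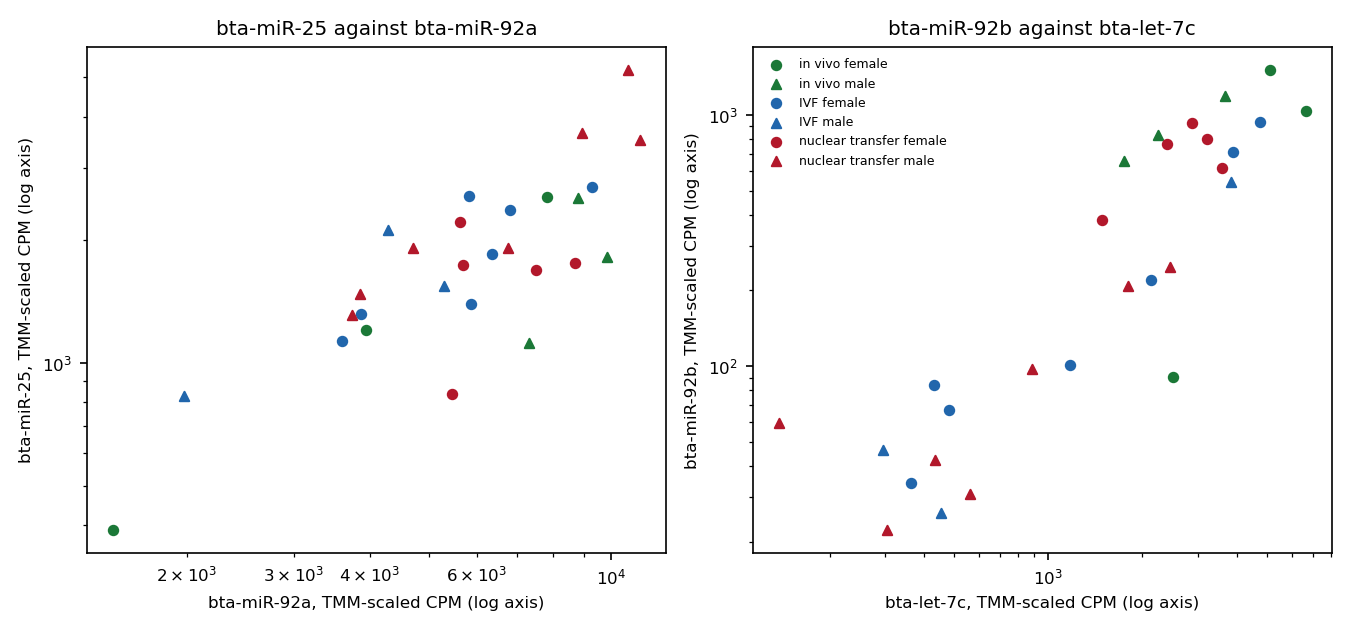
Left, TMM-scaled CPM of bta-miR-25 against bta-miR-92a; right, of bta-miR-92b against bta-let-7c; all axes are log axes and each point is 1 of the 28 libraries. Points rise together in both panels (rho 0.72 and 0.87), and in the right panel the nuclear transfer males (red triangles) all lie at or below 247 CPM of bta-miR-92b. IVF libraries from 26.0 to 220 CPM and in vivo female replicate 1 at 90.7 CPM lie in that range too.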

How the data were processed

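Per the labels' protocols, EV RNA was taken up on silica columns with DNase treatment, and the small RNA libraries were selected for short inserts. The authors deposited whole read counts per miRNA, not normalized. Per the submitters' processing notes the build was ARS-UCD1.2 and tools included cutadapt and Bowtie; the sources used here do not give versions or settings. Every EV sample column was used, and the endometrial table was not used here.

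Tests on the counts used edgeR 4.0.16 (R 4.3.3): TMM scaling, filterByExpr (minimum count 10, minimum total 15), the quasi-likelihood F test and Benjamini-Hochberg adjustment over all entries tested. The 28 libraries entered 1 fit of 6 group means (type by sex), and the 12 nuclear transfer libraries a fit of their own. SE is the log2 fold over the square root of F. Log2 CPM used a prior count of 2. Scripts were tested on simulated data. The members, lists and tests were chosen with earlier results of these data known. Seed relatives and cluster partners were listed from general knowledge of miRNA genes.

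Entries named are the members, their seed relatives, 3 cluster partners, the 3 tested entries nearest each member by Spearman's rho, the nearest with group means taken out, and bta-miR-2887 and bta-miR-2904. Outside that rule bta-miR-106a, bta-miR-20b, bta-miR-18b and bta-miR-19b, as products of the cluster of bta-miR-363, were named after their values were seen. So were bta-miR-144 and bta-miR-371, as markers. Replicate numbers in titles do not pair samples. Alternatives were DESeq2 1.42.0, limma 3.58.1 voom with quality weights, size factors of DESeq2 in edgeR, other filters, counts without bta-miR-2887 and bta-miR-2904, their part as a covariate, a replicate block, 3 type means, each library left out and, added after the data were seen, a robust spread estimate and a fit without the 3 libraries under 50000 counts.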

Additional observations from a re-analysis of the deposited data

How the results depend on the processing

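The fall of bta-miR-92b between nuclear transfer sexes kept its direction and threshold in 9 of 10 alternatives; the exception was the part of counts in bta-miR-2887 and bta-miR-2904 as a covariate (−2.56, adjusted p = 0.160). The number of entries called there, 40, became 63 with no low count filter, 0 with that covariate and 20 in the fit of all 28 libraries. It ran from 16 to 50 with each library left out, being 16 without nuclear transfer female 3 or male 3, 20 without male 1, 21 without female 4, 24 without male 4 or male 6 and 26 without male 5.

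For IVF minus in vivo, the 0 calls became 13 with DESeq2, 22 with limma voom and 6 with no filter, and ran from 0 to 21 with each library left out (21 without IVF male 3). For nuclear transfer minus in vivo, the 1 call became 6 with no filter and 0 with DESeq2, voom, the covariate, 3 type means or without the 3 shallowest libraries, and ran from 0 to 5. For nuclear transfer minus IVF, the 3 calls became 5 with no filter and 0 with DESeq2, voom, the covariate, 3 type means, without bta-miR-2887 and bta-miR-2904 or without the 3 shallowest libraries, and ran from 0 to 4. Sex and interaction calls were 0 in all. The cause of these changes was not tested.

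Reversed signs were all of small differences that did not pass. bta-miR-25, IVF minus in vivo, was −0.034 with the 10 CPM filter, −0.044 with the covariate and −0.10 without the 3 shallowest libraries (−0.18 to 0.38 with each library left out). bta-miR-92a, nuclear transfer minus in vivo, was −0.0072 with 3 type means and −0.18 without the 3 shallowest (−0.15 to 0.35). bta-miR-92b, nuclear transfer minus IVF, was −0.0051 with DESeq2 and −0.0028 with its size factors, but 1.41 with voom, 1.19 without the 3 shallowest and 0.76 with the covariate (−0.25 to 1.201). bta-miR-92a between nuclear transfer sexes was −0.046 with voom (−0.22 to 0.43). Size factors moved the median of all entries from 0.01 to 0.13 for IVF minus in vivo and from −0.04 to 0.11 for the sexes.

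The replicate block gave 0, 6, 3, 0, 0 and 41 calls, in the order IVF minus in vivo, nuclear transfer minus in vivo, nuclear transfer minus IVF, sex, interaction and sex within nuclear transfer, and −3.03 (adjusted p = 0.0154) for bta-miR-92b in the last. Libraries of the same number did not deviate together (mean correlation 0.02 over 53 pairs of groups' libraries, 20 above 0.1), so the numbers were not used as pairs.

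Depth limits bta-miR-363 most, at 8 counts, and bta-miR-92b in libraries with 2 to 10 counts.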
